A study of Mus musculus with 2 samples.

Results

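Cadherins, protocadherins and integrins are the surface receptors that hold cells to each other and to the matrix. They were measured in sorted progenitors of the nephron, cap mesenchyme cells of the embryonic kidney that express Six2 and later form the nephron's epithelium. The members are the protein-coding genes whose symbols are Cdh with a number, or begin with Pcdh, Itga or Itgb, without Cdh5. Of 122 such genes in the GENCODE vM21 annotation, 55 are among the 10627 rows of the deposited table and the rest are not analysed here. They comprise 16 genes of the protocadherin beta array (Pcdhb), 12 other protocadherins, 11 cadherins and 16 integrin chains. The table's largest corrected p-value is 0.0499827, so it holds genes that passed the authors' own comparison, and a member with few reads had to differ to be listed. Counts over listed members therefore describe the list and not the families.

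The KO library came from conditional p53 knockout cells, Six2CreGFP+ with p53f/f, in which Cre recombinase driven by Six2 deletes the floxed Trp53 alleles. The WT library came from Six2CreGFP+ cells with p53+/+. Both genotypes carry the Six2CreGFP transgene, both were sorted by flow cytometry from kidneys at embryonic day 15.5, and both are on a mixed CD1 and C57BL background. There was 1 library per genotype, so no difference has a replicate check and no test between genotypes was possible. Differences were read against a size of 1.5-fold, and intervals cover counting error only. Whether RNA of 1 or several embryos was pooled is not given in the labels. Levels are deposited read densities, which behave as RPKM (reads scaled to the length of the gene and the depth of the library) and can be compared between genes. Trp53 was at 5.38 RPKM in KO and 33.9 RPKM in WT, over its whole gene model. Six2 was at 509 RPKM in KO and 482 RPKM in WT. The depth inferred from the table was about 85600000 reads in KO and 91200000 reads in WT. In bulk RNA, fewer cells of a type and less RNA per cell cannot be told apart.

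Classical cadherins bind their own kind on the neighbouring cell through calcium-dependent extracellular repeats and are tied to actin by catenins. Clustered protocadherins are encoded in the alpha, beta and gamma arrays that lie side by side in the genome. Each beta gene is a single exon with its own promoter, and in neurons the choice of promoter depends on CTCF, cohesin and DNA methylation. Integrins are pairs of an alpha and a beta chain that bind matrix proteins. In the kidney, the integrin with the alpha chain Itga8 on the mesenchyme binds nephronectin and is needed for ureteric bud outgrowth, while E-cadherin (Cdh1) and Ksp-cadherin (Cdh16) mark the epithelium that forms as progenitors differentiate.

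The start regions of the members with the most extreme differences that have a RefSeq promoter entry are shown because these genes lay on opposite sides of the comparison. They are Pcdh8 and Itga8, the highest KO/WT ratios over the median density, and Itgb6, the lowest ratio with reads in both libraries. Each is the 250 bases before the RefSeq start on GRCm38.p6, written 5′ to 3′ on the minus strand, which is each gene's own, and capitals mark TATAAA. The regions are chr14:79771313-79771562 for Pcdh8, chr2:12301945-12302194 for Itga8 and chr2:60722604-60722853 for Itgb6.
Pcdh8: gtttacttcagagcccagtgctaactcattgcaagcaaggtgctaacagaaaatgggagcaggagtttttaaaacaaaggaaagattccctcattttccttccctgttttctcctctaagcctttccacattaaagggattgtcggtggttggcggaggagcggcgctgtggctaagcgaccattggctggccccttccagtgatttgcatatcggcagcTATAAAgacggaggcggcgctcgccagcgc
Itga8: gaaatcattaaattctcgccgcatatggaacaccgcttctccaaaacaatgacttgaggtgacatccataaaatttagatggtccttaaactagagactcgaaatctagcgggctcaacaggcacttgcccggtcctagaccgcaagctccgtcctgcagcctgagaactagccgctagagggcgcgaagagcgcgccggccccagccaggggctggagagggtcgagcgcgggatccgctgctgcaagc
Itgb6: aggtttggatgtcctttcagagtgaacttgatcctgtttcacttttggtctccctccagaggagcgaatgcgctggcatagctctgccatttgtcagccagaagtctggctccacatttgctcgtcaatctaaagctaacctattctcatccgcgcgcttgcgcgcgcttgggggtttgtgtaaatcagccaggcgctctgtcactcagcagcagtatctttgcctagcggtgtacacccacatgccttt
Searched on both strands, TATAAA was found in Pcdh8 and in 12.4% of 32851 RefSeq promoter windows of this length. The E-box CACCTG was in none of these 3 windows and in 17.2% of all windows, and the p53 half-site consensus, with no mismatch allowed, was in none of the 3 and in 7.13% of all. Only 25 of the listed members were searched, and of these 2 held a p53 half-site match and 5 the E-box. These counts are of members and the percentages above are of windows, so they cannot be compared directly. A match or its absence in these letters says nothing about binding.

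The protocadherin beta array was the group that was higher in KO. Of its 16 listed genes, 15 had a higher density in KO and 1 a lower one, where 36.2% of all listed genes were higher in KO. After the adjustment for GC content and length described further on, 14 were above 0 and 2 below, where 75.8% of genes with a gene model were below 0. The KO/WT density ratio had a median of 1.42 over the array and ran from 0.77 to 2.09. Summed over the 16 genes, the density was 29.9 RPKM in KO and 21.5 RPKM in WT. All 16 densities correspond to whole reads in both libraries within 0.05 of a read, from 119 to 1490 reads per gene and library, so counting error is moderate. The 95% exact (Clopper-Pearson) interval of the ratio lay above 1 for 15 genes and below 1 for the other. Listed genes had already passed the authors' comparison of the same libraries, so intervals clear of 1 largely restate that filter and add no separate support. The annotation has 22 Pcdhb genes, and Pcdhb1, Pcdhb9, Pcdhb12, Pcdhb18, Pcdhb20 and Pcdhb22 are not analysed here.

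**Figure D1:**
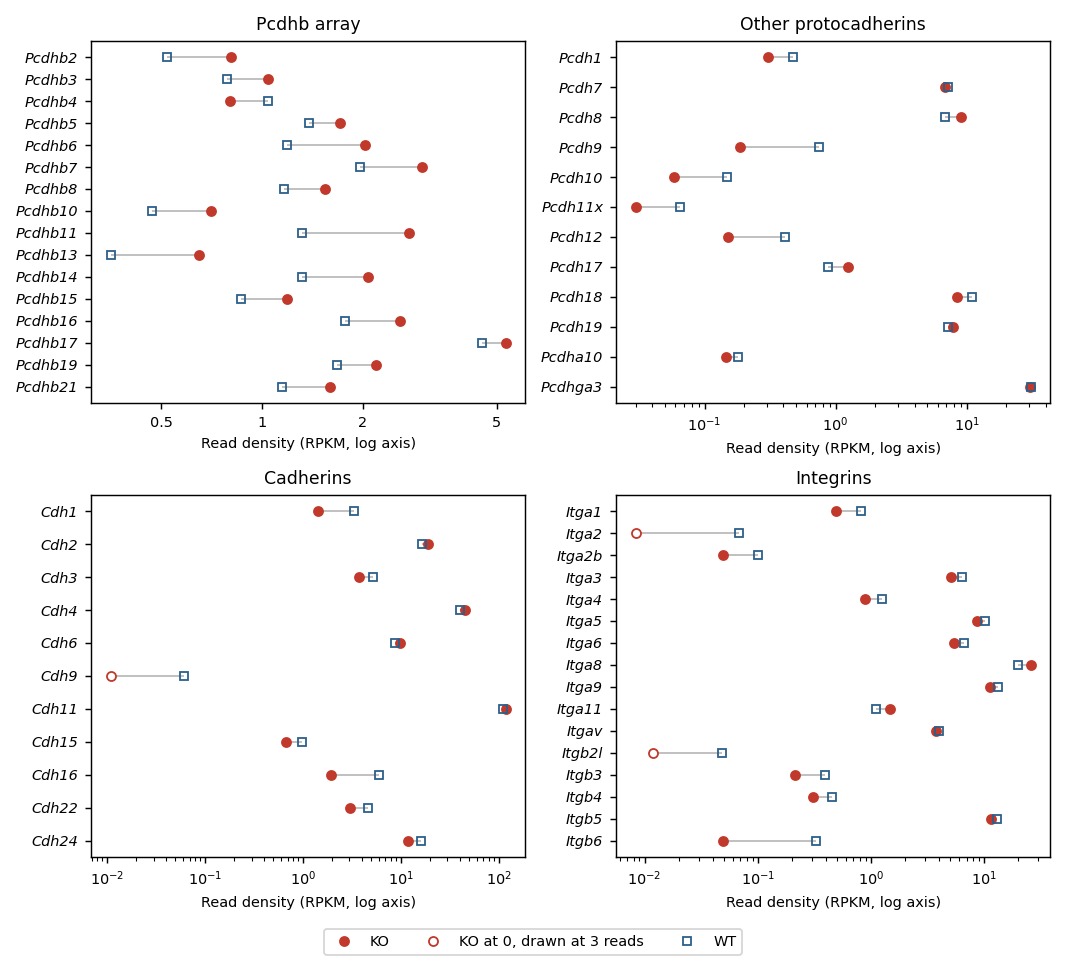
Read density in RPKM (log axis) of each of the 55 members in the KO library (filled red circles) and the WT library (open blue squares), by group; open red circles are genes at 0 in KO, drawn at the density of 3 reads. KO lies right of WT for 15 of 16 genes of the Pcdhb array and left of it for 14 of 16 integrin chains, or 11 of 16 when both libraries are centred on the median difference.

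Pcdhb11 differed most. It had 2.75 RPKM in KO and 1.31 RPKM in WT, from 851 reads in KO and 433 reads in WT, a ratio of 2.09 (95% interval 1.86 to 2.36). Pcdhb13, at 0.648 RPKM in KO and 0.353 RPKM in WT, had a ratio of 1.84 (1.46 to 2.32). Both were low, and neither interval reached 1, which their being listed made likely. Pcdhb6 was at 2.03 RPKM in KO and 1.18 RPKM in WT, a ratio of 1.71 (1.47 to 2.00). Pcdhb14 was at 2.06 RPKM in KO and 1.32 RPKM in WT, Pcdhb2 at 0.808 RPKM in KO and 0.522 RPKM in WT, and Pcdhb7 at 2.99 RPKM in KO and 1.95 RPKM in WT, with ratios between 1.53 and 1.57. These 6 genes were at least 1.5-fold higher by the plain ratio, which holds for 4.39% of all listed genes. On the log2(density + 1) scale, which understates the change of low genes, Pcdhb11 alone passed 1.5-fold, with a log2 difference of 0.70, against 0.96% of all listed genes.

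The most abundant gene of the array was Pcdhb17, at 5.32 RPKM in KO and 4.53 RPKM in WT, with the smallest ratio among the higher genes, 1.18 (1.09 to 1.27). Pcdhb16 (2.57 RPKM in KO and 1.77 RPKM in WT) had a ratio of 1.45, and Pcdhb5 (1.71 RPKM in KO and 1.38 RPKM in WT) one of 1.23. The exception was Pcdhb4, at 0.804 RPKM in KO and 1.04 RPKM in WT, with 256 reads in KO and 354 reads in WT and a ratio of 0.77 (0.653 to 0.907). The 6 other genes of the array, Pcdhb3, Pcdhb8, Pcdhb10, Pcdhb15, Pcdhb19 and Pcdhb21, had ratios from 1.31 to 1.49.

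The listed genes span 223 kb of chromosome 18 (GRCm38), from 37294840 at the start of Pcdhb2 to 37518313 at the end of Pcdhb21, all on the plus strand and all of a single exon. Pcdhb4, the gene that was lower, lies 12.6 kb from the start of Pcdhb2, between Pcdhb3 with a ratio of 1.32 and Pcdhb5 with one of 1.23. Pcdhb11 lies 127 kb from the start. Taf7, a subunit of the general transcription factor TFIID that lies between the beta and gamma arrays on the minus strand, was at 22.7 RPKM in KO and 20.3 RPKM in WT. The protein-coding gene 3222401L13Rik, also between these arrays but on the plus strand, was at 0.507 RPKM in KO and 0.883 RPKM in WT.

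**Figure D2:**
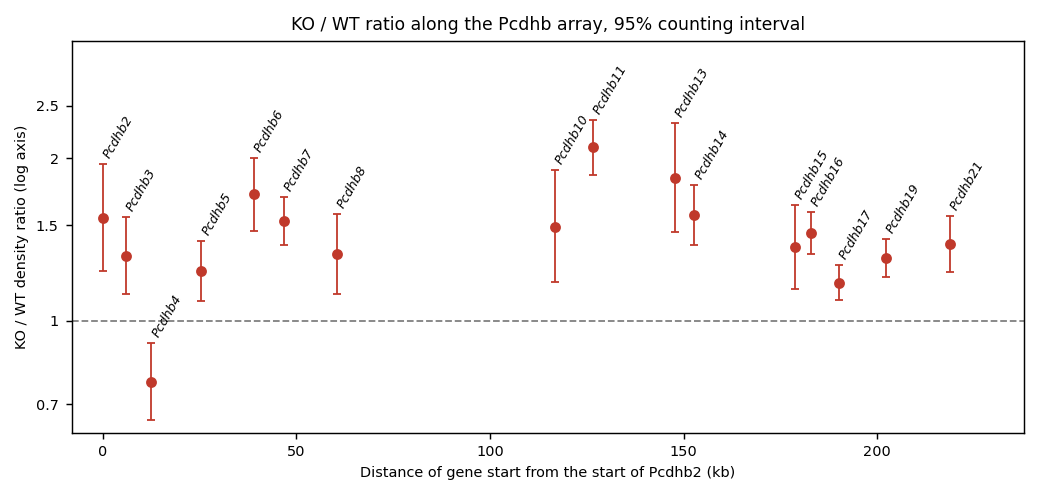
KO/WT density ratio (log axis) of the 16 listed Pcdhb genes against the distance of each gene's start from the start of Pcdhb2 in kb; points are ratios, bars the 95% exact intervals of counting error, and the dashed line a ratio of 1. All points but Pcdhb4, at 0.77, lie above the line, the highest being Pcdhb11 at 2.09.

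The beta genes resemble one another, so reads could be assigned to a neighbour. Of all windows of 50 bases in each listed gene's annotated transcripts, 1.5% to 11.3% (median 3.48%) also occur in another of the 22 annotated Pcdhb genes. The share was 9.52% for Pcdhb11 and 3.35% for Pcdhb4. How reads with several alignments were treated is not given in the sources used here. Base composition also moved with the difference between the libraries. Across the listed genes with a gene model, which are not independent replicates and share 1 pair of libraries, the difference fell with rising GC content (Spearman's rho -0.42), and the median GC content was 46.0% in the array and 49.9% in all listed genes. Among 1057 other listed genes within the density and GC range of the array, 468 were higher in KO and the median log2 difference was -0.13. Among 104 other listed single-exon protein-coding genes in the same density range, 38 were higher and the median was -0.23. The array's own median was 0.25, and 0.21 once adjusted for GC content and length, an adjustment under which all listed genes had a median of -0.11 and 15 of the 16 array genes lay above that value. Under that adjustment Pcdhb11 was at 0.45 and no longer past 1.5-fold, Pcdhb19 at -0.01, and Pcdhb21 at 0.02. The adjustment and the windows rest on vM21 gene models, which for some array genes are longer than the deposited row. For Pcdhb14 there were 8646 windows against a row of 3438 bases.

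**Figure D3:**
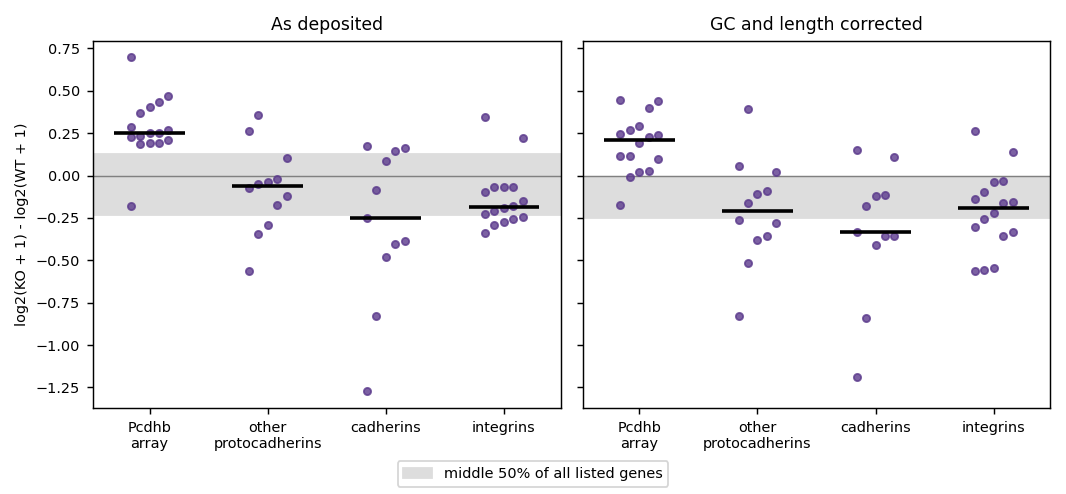
Log2(KO + 1) minus log2(WT + 1) of each member by group, on the deposited densities (left) and adjusted for GC content and gene length (right); black lines are group medians and the grey band is the middle 50% of all listed genes. The array's median is 0.25 on the left and 0.21 on the right, while the medians of the other groups are below 0 in both panels; that of the other protocadherins, -0.06 on the left, is 0.011 when both libraries are centred on the median difference.

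The table has 1 row in each of the alpha and gamma arrays on either side. The row named Pcdhga3 was at 30.3 RPKM in KO and 30.8 RPKM in WT, a ratio of 0.986 (0.963 to 1.01). This row spans 168 kb, from 37674335 to 37841873 on chromosome 18, and the vM21 annotation gives its gene ID to Pcdhgc4 and places 18 gamma genes inside the span. The row named Pcdha10, whose ID vM21 gives to Pcdha11, was at 0.147 RPKM in KO and 0.179 RPKM in WT, a ratio of 0.824 (0.597 to 1.16). It spans 257 kb with 12 annotated alpha genes inside. Alpha and gamma genes share their last exons within an array, so neither row can be read as a single isoform. Read counts of these rows are approximate, resting on lengths of 5596 bases for Pcdhga3 and 5359 bases for Pcdha10. Their intervals are therefore rough and do not show that the rows were level. The authors' signed fold change, which carries a factor of 1.04, was 1.025 for Pcdhga3, higher in KO, and -1.167 for Pcdha10. With 1 library per genotype, the difference between the beta array and these rows was not tested.

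A list of regulators of clustered protocadherin promoters was mostly higher in KO by small amounts on the deposited densities, and mostly below 0 but above the median of all listed genes when adjusted for GC content and length. Of 19 names, 14 are listed and 13 of these were higher, none past 1.5-fold, where 36.2% of all listed genes were higher. Their median log2 difference was 0.15 against -0.11 over all listed genes. With the GC and length adjustment, 4 were above 0 and 10 below, where 75.8% of genes with a gene model were below 0. The adjusted median was -0.04, and 10 of the 14 lay above the adjusted median of all listed genes, -0.11. Ctcf, the insulator protein that marks active protocadherin promoters, was at 44.1 RPKM in KO and 37.0 RPKM in WT. Rad21, a subunit of cohesin, was at 133 RPKM in KO and 118 RPKM in WT. Rest, the repressor of neuronal genes, was at 32.2 RPKM in KO and 25.01 RPKM in WT, the largest difference of the list. Dnmt1, the maintenance DNA methyltransferase, was the 1 lower gene, at 36.3 RPKM in KO and 39.7 RPKM in WT. Dnmt3b, which methylates protocadherin promoters in the embryo, was at 4.01 RPKM in KO and 3.59 RPKM in WT, and Smchd1, a repressor of the clusters, at 11.2 RPKM in KO and 10.3 RPKM in WT.

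Of 10 listed non-clustered protocadherins, 3 were higher and 7 lower in KO, beside 63.8% of all listed genes that were lower. Of all 12 rows outside the beta array 3 were higher and 9 lower, or 6 and 6 when both libraries were centred on the median difference of -0.07, which left 59% of all listed genes lower. The delta-2 gene Pcdh8, whose frog counterpart PAPC works in paraxial mesoderm, was at 9.05 RPKM in KO and 6.84 RPKM in WT, a ratio of 1.32 (1.26 to 1.39). Pcdh17 was at 1.25 RPKM in KO and 0.877 RPKM in WT, a ratio of 1.43 (1.31 to 1.55). Pcdh19, an X-linked gene whose protein pairs with N-cadherin, was at 7.83 RPKM in KO and 7.20 RPKM in WT. Pcdh7 was nearly level, at 6.81 RPKM in KO and 7.21 RPKM in WT. Pcdh18, at 8.39 RPKM in KO and 10.9 RPKM in WT, had the highest density of the lower non-clustered genes, with a ratio of 0.767 (0.735 to 0.799). Adjusted for GC content and length, Pcdh8 stayed above 0 at 0.39 and Pcdh17 at 0.05, while Pcdh19 turned to -0.09.

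The other non-clustered genes were under 1 RPKM in both libraries and lower in KO. Pcdh9 was at 0.185 RPKM in KO and 0.753 RPKM in WT, a ratio of 0.246 (0.198 to 0.305). Pcdh12, an endothelial protocadherin, was at 0.15 RPKM in KO and 0.408 RPKM in WT, a ratio of 0.369 (0.280 to 0.478). Pcdh10 was at 0.0582 RPKM in KO and 0.149 RPKM in WT, Pcdh11x at 0.0298 RPKM in KO and 0.0644 RPKM in WT, and Pcdh1 at 0.302 RPKM in KO and 0.469 RPKM in WT. By the plain ratio these 5 were at least 1.5-fold lower, as were 22.6% of all listed genes. On the log2(density + 1) scale none of the 12 rows outside the array passed 1.5-fold, against 5.5% of all listed genes that were lower by that rule. Pcdh1, Pcdh10, Pcdh11x, Pcdh12 and Pcdha10 were too low in WT to pass downward on that scale, even at 0 in KO. The absence of calls therefore does not show a lack of change in them. Their largest difference was -0.56 for Pcdh9.

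Among the cadherins, Cdh11, Cdh4, Cdh2 and Cdh6 were slightly higher in KO on the deposited densities, and Cdh16 and Cdh1 were lower. Of 11 listed, 4 were higher and 7 lower in KO, and 63.8% of all listed genes were lower. With the GC and length adjustment the split was 2 above and 9 below 0, where 75.8% of genes with a gene model were below 0. Cdh11, a type II cadherin of mesenchyme on chromosome 8 (102632995 to 102785111, minus strand), was the most abundant of all members, at 118 RPKM in KO and 111 RPKM in WT, a ratio of 1.06 (1.05 to 1.07). Cdh4, R-cadherin, was at 45.6 RPKM in KO and 40.7 RPKM in WT, a ratio of 1.12. Cdh2, N-cadherin, was at 18.8 RPKM in KO and 16.6 RPKM in WT, a ratio of 1.13. Cdh6, which marks the early proximal tubule and its precursors, was at 9.76 RPKM in KO and 8.71 RPKM in WT, a ratio of 1.12. These 4 were the higher ones, each with a ratio of at most 1.13, and with the GC and length adjustment the log2 differences of Cdh11 (-0.12) and Cdh6 (-0.12) turned negative while those of Cdh2 (0.11) and Cdh4 (0.15) did not.

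Cdh16 and Cdh1 were the members furthest below WT on the log2(density + 1) scale. Cdh16 (chromosome 8, 104614141 to 104624396, minus strand) was at 1.92 RPKM in KO and 6.06 RPKM in WT, a ratio of 0.317 (0.289 to 0.347) and a log2 difference of -1.27. Cdh1 (chromosome 8, 106603351 to 106670246, plus strand) was at 1.44 RPKM in KO and 3.33 RPKM in WT, with 564 reads in KO and 1391 reads in WT, a ratio of 0.432 (0.391 to 0.477). These 2 passed 1.5-fold on that scale, which 5.5% of all listed genes did downward, and with the adjustment for GC content and length Cdh16 was at -1.19 and Cdh1 at -0.84. Cdh3, P-cadherin, the neighbour of Cdh1 on chromosome 8, was at 3.78 RPKM in KO and 5.26 RPKM in WT, a ratio of 0.719 (0.672 to 0.769). Cdh22 was at 3.07 RPKM in KO and 4.68 RPKM in WT, a ratio of 0.656 (0.605 to 0.711), and Cdh24, a type II cadherin, at 11.9 RPKM in KO and 16.1 RPKM in WT. Cdh15, M-cadherin of muscle, was at 0.674 RPKM in KO and 0.991 RPKM in WT. Cdh9 had 0 reads in KO and 18 reads in WT. It was 5.63-fold lower when 3 reads are allowed in the KO library and the WT count is taken as exact. With counting error in both libraries, the exact interval of its KO/WT ratio reached up to 0.242.

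Most markers of the epithelium were lower in KO as well. Of 15 listed early nephron and tubule markers, 13 were lower in KO, 7 of them past 1.5-fold, and the summed density of the list was 64.6 RPKM in KO and 100.5 RPKM in WT. Bmp2 of this list was past 1.5-fold in the other direction, at 15.6 RPKM in KO and 9.95 RPKM in WT. Among all listed genes 63.8% were lower, and 5.5% were lower past 1.5-fold. All 12 listed ureteric bud markers were lower in KO, with a sum of 14.3 RPKM in KO and 27.4 RPKM in WT, as were all 6 podocyte markers, with a sum of 3.85 RPKM in KO and 14.4 RPKM in WT. None of these markers was at 0 in either library. Progenitor markers split 8 higher and 8 lower, with a sum of 1441 RPKM in KO and 1383 RPKM in WT. The part of epithelial RNA in the lower Cdh1 and Cdh16 was not tested.

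**Figure D4:**
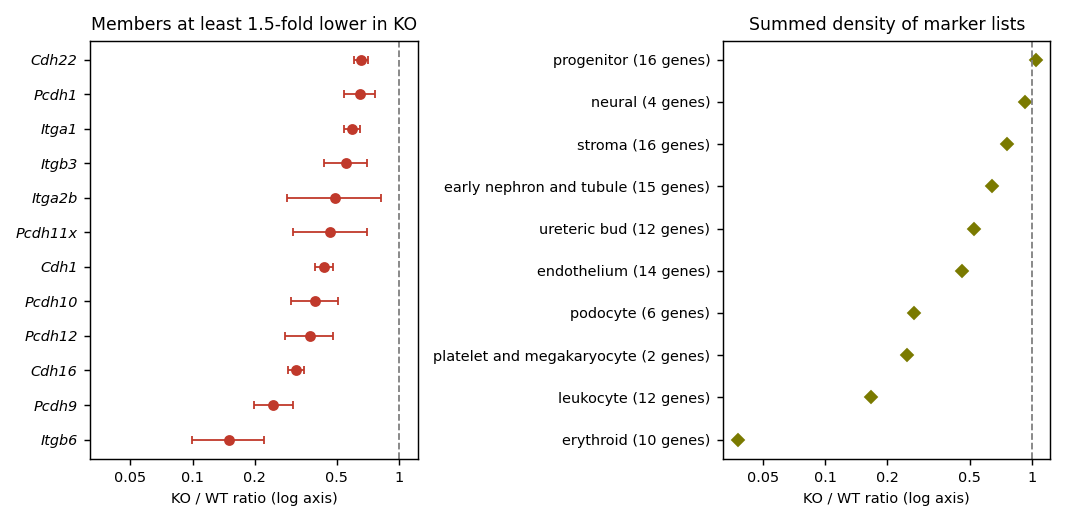
KO/WT ratio (log axis) of the 12 members with reads in both libraries that were at least 1.5-fold lower in KO by the plain ratio (left, with 95% exact intervals of counting error) and of the summed density of each marker list (right, number of listed genes in brackets). Itgb6 is lowest among the members at 0.151, and among the lists the progenitor sum lies at 1.04 and the erythroid sum at 0.0378.

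The intracellular partners of the cadherins and the atypical cadherins mostly lay within 1.5-fold. Of 7 listed catenins and plakophilins, 2 were higher and 5 lower and none passed 1.5-fold on the log2(density + 1) scale. Pkp3 was too scarce in WT to pass downward on it. The list counts Ctnnbip1, a beta-catenin binding protein rather than a catenin. For comparison, 63.8% of all listed genes were lower, and 5.5% were lower past 1.5-fold. Beta-catenin (Ctnnb1), which links cadherins to alpha-catenin and also carries the Wnt signal, was at 192 RPKM in KO and 176 RPKM in WT. Alpha-catenin (Ctnna1), which ties the complex to actin, was at 88.3 RPKM in KO and 94.3 RPKM in WT. Of 14 listed atypical and desmosomal cadherins, 6 were higher and 8 lower, with a median of -0.12. These 14 count Ret, a receptor tyrosine kinase that is also among the ureteric bud markers. The planar polarity pair Fat4 (13.2 RPKM in KO and 12.6 RPKM in WT) and Dchs1 (29.9 RPKM in KO and 28.8 RPKM in WT) was nearly level, as was Fat1, at 43.4 RPKM in KO and 40.8 RPKM in WT. Clstn1, a calsyntenin, was at 39.9 RPKM in KO and 46.8 RPKM in WT. Cdhr1 was the only one of this list past 1.5-fold on the log2(density + 1) scale, at 2.23 RPKM in KO and 5.57 RPKM in WT. That scale understates the change of scarce genes such as Cdhr2, which could not pass downward on it.

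Most integrin chains were lower in KO, those with middle densities by small amounts and several scarce ones by more, with Itga8 as the main exception. Of 16 listed, 2 were higher and 14 lower, or 5 higher and 11 lower when centred on the median difference, where 63.8% of all listed genes were lower, or 59% when centred. None was past 1.5-fold on the log2(density + 1) scale, against 5.5% of all listed genes downward, and the median was -0.19 against -0.11 over all listed genes. Itga2, Itga2b, Itgb2l, Itgb3, Itgb4 and Itgb6 were too low in WT to pass downward on that scale, even at 0 in KO. By the plain ratio 6 of the 16 were at least 1.5-fold lower, as were 22.6% of all listed genes. Itga8 (chromosome 2, 12106632 to 12301920, minus strand) was the most abundant chain, at 25.7 RPKM in KO and 20.0 RPKM in WT, a ratio of 1.28 (1.25 to 1.31). Its log2 difference was 0.35, and 0.14 with the GC and length adjustment. Itga11, a collagen receptor chain, was the other higher one, at 1.46 RPKM in KO and 1.11 RPKM in WT, from 642 reads in KO and 520 reads in WT, a ratio of 1.32 (1.17 to 1.48). The beta chains Itgb1, the usual partner of Itga8, and Itgb8 are not analysed here.

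The chains with middle densities had ratios from 0.801 to 0.941. Itga9 was at 11.2 RPKM in KO and 13.3 RPKM in WT, a ratio of 0.844 (0.819 to 0.870). Itga5, the fibronectin receptor chain, was at 8.69 RPKM in KO and 10.2 RPKM in WT, a ratio of 0.854. The laminin receptor chains Itga6 (5.43 RPKM in KO and 6.61 RPKM in WT) and Itga3 (5.09 RPKM in KO and 6.35 RPKM in WT) had ratios of 0.821 and 0.801. Itgav, which pairs with several beta chains, was nearest to level at 3.72 RPKM in KO and 3.96 RPKM in WT, a ratio of 0.941 (0.898 to 0.985). Itgb5, a partner of Itgav, was at 11.4 RPKM in KO and 13.1 RPKM in WT, a ratio of 0.874.

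The scarce chains had the ratios furthest from 1. Itgb6, an epithelial chain whose pair with Itgav activates latent TGF-beta, was at 0.0493 RPKM in KO and 0.327 RPKM in WT, from 30 reads in KO and 212 reads in WT, a ratio of 0.151 (0.0992 to 0.222). Itgb3 was at 0.214 RPKM in KO and 0.388 RPKM in WT, a ratio of 0.550 (0.432 to 0.698), and Itga2b, its partner on platelets, at 0.0492 RPKM in KO and 0.1005 RPKM in WT, from 23 reads in KO and 50 reads in WT. The 2 listed platelet and megakaryocyte markers, of 8 names, had a sum of 0.505 RPKM in KO and 2.03 RPKM in WT. Itga1, a collagen receptor chain, was at 0.486 RPKM in KO and 0.823 RPKM in WT, a ratio of 0.591, and Itga4, the partner for Vcam1, at 0.876 RPKM in KO and 1.24 RPKM in WT, a ratio of 0.707. Itgb4, the hemidesmosome partner of Itga6, was at 0.309 RPKM in KO and 0.455 RPKM in WT. Itga2 had 0 reads in KO and 26 reads in WT and Itgb2l 0 reads in KO and 13 reads in WT. They were 8.14-fold and 4.07-fold lower when 3 reads are allowed in KO and the WT count is taken as exact. With counting error in both libraries, the exact interval of the KO/WT ratio reached up to 0.162 for Itga2 and 0.35 for Itgb2l. By the plain ratio 6 of the 16 chains were at least 1.5-fold lower, as were 22.6% of all listed genes.

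Markers of other cell types in which these chains are found were lower in the same library. The 14 listed endothelial markers, Cdh5 among them, were all lower, with a sum of 12.0 RPKM in KO and 26.2 RPKM in WT. The 12 leukocyte markers were all lower, or 11 of them when centred, with a sum of 2.92 RPKM in KO and 17.6 RPKM in WT, and the 10 erythroid markers too, with a sum of 23.9 RPKM in KO and 632.9 RPKM in WT. Of 16 stromal markers, 14 were lower, 13 of them past 1.5-fold, with a sum of 453 RPKM in KO and 600.1 RPKM in WT. The largest part of that sum was Aldh1a2, which was not lower, at 286 RPKM in KO and 272 RPKM in WT. The median log2 difference of the stromal list was -1.31. Among all listed genes 63.8% were lower, 59% when centred, and 5.5% were lower past 1.5-fold. Of these lists, only Hba-x was at 0 in KO and none in WT. Of 4 listed neural markers 2 were higher and 2 lower. Their part in the lower Itga1, Itga2b, Itga4, Itgb3, Pcdh9 and Pcdh12 was not tested.

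Ligands of the integrins were lower more often than not, and most of their adaptors were lower by little. Of 17 listed ligands, 14 were lower and 3 higher in KO, or 13 and 4 when centred, with a median of -0.42, and 4 were past 1.5-fold. Of all listed genes 63.8% were lower, 59% when centred, and 5.5% were lower past 1.5-fold. Npnt, nephronectin, the ligand of the Itga8 integrin, was at 11.4 RPKM in KO and 16.5 RPKM in WT, a log2 difference of -0.50. Fibronectin (Fn1) was at 22.1 RPKM in KO and 35.7 RPKM in WT. Emilin1 was at 17.8 RPKM in KO and 42.2 RPKM in WT, and Vcam1, the ligand of the Itga4 integrin, at 1.38 RPKM in KO and 4.16 RPKM in WT. Spp1, osteopontin, was at 0.0779 RPKM in KO and 1.65 RPKM in WT. The basement membrane collagens Col4a1 (57.3 RPKM in KO and 75.1 RPKM in WT) and Col4a2 (47.1 RPKM in KO and 57.7 RPKM in WT) did not pass 1.5-fold, and tenascin C (Tnc) was higher, at 41.6 RPKM in KO and 33.8 RPKM in WT. All 14 listed activators and adaptors were lower in KO on the deposited densities, and 13 when centred on the median difference, none past 1.5-fold on the deposited densities and with a median of -0.16. Fermt1 and Ptk2b of this list were too scarce in WT to pass downward on the log2(density + 1) scale. Zyx, zyxin, was at 32.3 RPKM in KO and 38.7 RPKM in WT, Kank2 at 30.5 RPKM in KO and 34.0 RPKM in WT, and Tln1, talin, which activates integrins from inside the cell, at 14.6 RPKM in KO and 16.98 RPKM in WT.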

How the data were processed

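RNA from sorted nephron progenitor cells was sequenced, with 1 library for each genotype. The submitters' processing notes name CASAVA 1.8, Novoalign 2.08.02 and FastQC and the builds GRCm38 and mm10. How reads were counted, on which strand and what became of multiply aligned reads is not stated. The read densities deposited by the authors behave as RPKM, which the values show and per the file headers is only called density. The deposited table also gives, per the file headers, each gene's p-value and corrected p-value, an absolute fold ratio, and a signed fold change, a score below 0 for genes lower in KO. The deposited fold is the density ratio times 1.04.

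Depths came from the fold change steps of genes at 0 in 1 library, whole within 0.01 of a read in 70 of 75 genes for KO and 150 of 171 for WT. Reads of 29 members came out whole within 0.05 with a GENCODE vM21 length, the single-exon span or that step, and the other 26 are approximate. The measure was log2(KO + 1) minus log2(WT + 1) over all 10627 rows, with no filter, and the size rule was 1.5-fold. Exact 95% binomial intervals cover counting error only. The scripts were tested on simulated data, with the size rule checked only on genes at or over the median density. That range holds 13 of the 55 members and none of the array, so the rule was not tested at the array's densities. To adjust for GC content and length, each of 10515 genes with a model had the median of its bin (10 by GC, 4 by length) taken off and the overall median put back.

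The members and lists were chosen with earlier results of these data known. Values are given for every member or its group's range, and genes of the lists are named where past 1.5-fold, among the most abundant 2, or, after their values were seen, for their role. Python 3.11.15, pandas 2.3.3, numpy 2.4.6, scipy 1.17.1 and matplotlib 3.10.9 were used.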

Additional observations from a re-analysis of the deposited data

How the results depend on the processing

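No paired analysis was possible because there is 1 library per genotype. The plain ratio was added after seeing the data. Median log2 differences were 0.25 for the Pcdhb array, -0.06 for other protocadherins, -0.25 for cadherins and -0.19 for integrins. With a pseudocount of 0.25 they were 0.40, -0.14, -0.43 and -0.26, and with one of 4 they were 0.11 for the array, -0.095 for cadherins and -0.077 for integrins. By the plain ratio they were 0.50, -0.33, -0.48 and -0.41. With only members at or over the median density, 7.29 RPKM, none of the array was left, and the medians were 0.043 for other protocadherins and 0.15 for cadherins. At or over 1 RPKM they were 0.043 for other protocadherins and -0.39 for cadherins. Centred on the median difference of -0.07 they were 0.011 for other protocadherins, -0.18 for cadherins and -0.11 for integrins. After correction for GC content and length they were -0.21 for other protocadherins and -0.33 for cadherins. Members past 1.5-fold were 1 higher in the array and 2 lower among cadherins. In the array this count was 2 with a pseudocount of 0.25, 6 by the plain ratio, and 0 with a pseudocount of 4, after the correction and at 2-fold. Lower cadherins numbered 1 with a pseudocount of 4 and at 2-fold, 0 over the median density and 4 by the plain ratio. Lower integrins numbered 1 with a pseudocount of 0.25 and 6 by the plain ratio, against 0. Lower protocadherins outside the array numbered 2 with a pseudocount of 0.25, 1 after the correction and 5 by the plain ratio, against 0. Of 260 differences of 32 members under these alternatives, 95 moved beyond their counting interval and 7, in 5 members, changed sign. The 260 include the 2-fold rule and the density cut-offs, which leave each difference as it was, so those entries could not move. The sign changes were Itgav at 0.002, Itgb2l at 0.003 and Pcdhga3 at 0.05 after centring, Pcdhga3 at 0.04 with the authors' scaling and 0.02 after the correction, and Cdh6 and Cdh11 at -0.12 after the correction. The cause was not tested. Depth limits Cdh9, Itga2 and Itgb2l, with 13 to 26 reads in WT.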
